A study of Mus musculus with 6 samples.

Results

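The enzymes described here cut and finish peptide hormones, growth factors and other secreted proteins. They comprise 8 genes, Pam, Cpe, Cpd, Furin, Pcsk1, Pcsk5, Pcsk6 and Pcsk7, and were taken as every probe set whose symbol in the platform annotation is one of these names. A probe set is a group of short oligonucleotides on the array that reports on a transcript. The 8 genes had 19 of the 45037 probe sets that were not array controls, and 8 of the 18193 genes with a symbol. The genes were selected on the signals of these arrays, with the difference between the genotypes already known, so their values in that contrast are given as a description, without p-values. Calls of the main fit are counted once, beside the share of the whole array.

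Lungs were taken from fetal mice at E18.5, shortly before birth, and each of the 6 arrays held the RNA of 1 animal. The 3 lungs labelled Nfibf/f, Dermo1-Cre, called Cre-labelled here, carried floxed alleles of Nfib and a Cre recombinase driven from Dermo1 (Twist2), a locus active in mesenchyme. The 3 lungs labelled Nfibf/f, called control-labelled, carried the same floxed alleles and no Cre. The RNA came from lung tissue with epithelium, vessels and other cells that Dermo1-Cre is not designed to target. Nfib encodes the transcription factor nuclear factor I B, and the series addresses what its loss from lung mesenchyme does to proliferation and epithelial differentiation.

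Secreted peptides are made as longer precursors. Proprotein convertases, encoded by the Pcsk genes and Furin, cut these after basic residues; carboxypeptidases, among them those of Cpe and Cpd, trim the basic residues left at the new end; and peptidylglycine alpha-amidating monooxygenase, the product of Pam, turns a terminal glycine into an amide, which many neuropeptides need for activity. The same convertases also activate growth factors, receptors and matrix proteins in cells that store no peptide. In the lung, pulmonary neuroendocrine cells are the best known source of amidated peptides, and Pam is abundant in atrial heart muscle.

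Values are log2 signals as deposited, so a step of 1 is a doubling on the linear scale, and values near or below 4 carry much noise. Each difference subtracts the control-labelled mean from the Cre-labelled mean and carries the standard error (SE) of a limma fit over all tested probe sets. Signals of different probe sets cannot be set against each other. The brightest Nfib probe set read 11.24, 11.16 and 11.49 in Cre-labelled and 10.24, 10.32 and 10.17 in control-labelled lungs, so the targeted gene was not lower in the lungs labelled as deleted. Of its 6 tested probe sets 5 were called higher in Cre-labelled lungs and on the other the groups overlapped. No source used here gives the place of these probes relative to the deleted part, and each direction below rests on the labels. The lung marker Sftpc, of type II cells, averaged 12.66 ± 0.24 in Cre-labelled and 12.73 ± 0.69 in control-labelled lungs (SD, n = 3 each). Col1a2, of mesenchyme, averaged 12.25 ± 0.22 and 12.18 ± 0.23 in the same order. The sum of 8 epithelial markers, given below, was lower in each Cre-labelled lung than in any control-labelled lung. The mean log2 signal of 12 cardiac muscle genes differed widely between arrays of the same group, at 6.03, 6.89 and 7.77 in Cre-labelled and 9.22, 8.33 and 7.56 in control-labelled lungs. In whole tissue, fewer cells of a type and less RNA in each cell cannot be told apart.

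Pam had the largest difference of the 15 member probe sets with a signal above the filter. It has 1 probe set, 1418908_at, which read 8.64, 8.63 and 8.73 in Cre-labelled and 6.89, 6.58 and 7.42 in control-labelled lungs. All 3 Cre-labelled lungs lay above all 3 control-labelled lungs, by more than the whole spread of either group. The means were 8.67 ± 0.06 and 6.96 ± 0.43 (SD, n = 3 each), a log2 difference of 1.70 ± 0.19 SE or 3.26-fold. The Cre-labelled lungs were close to each other, and most of the scatter lay among the control-labelled lungs, where replicate 3 was the highest. Leaving out 1 array at a time kept the difference between 1.51 and 1.93. With 64 added to the linear signals, which damps low values, it was 1.31.

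Pam and Pcsk6 were the members with the largest positive differences among the tested probe sets, and the stretches around their transcription starts are shown for that reason, 250 bases before to 50 bases after the start, from RefSeq on GRCm38.p6 and read along the strand of the gene. Capitals mark TTGGC or its reverse complement GCCAA, the core bound by nuclear factor I proteins. The Pam stretch lies at chr1:98095597-98095896 on the minus strand and the Pcsk6 stretch at chr7:65861886-65862185 on the plus strand.
Pam: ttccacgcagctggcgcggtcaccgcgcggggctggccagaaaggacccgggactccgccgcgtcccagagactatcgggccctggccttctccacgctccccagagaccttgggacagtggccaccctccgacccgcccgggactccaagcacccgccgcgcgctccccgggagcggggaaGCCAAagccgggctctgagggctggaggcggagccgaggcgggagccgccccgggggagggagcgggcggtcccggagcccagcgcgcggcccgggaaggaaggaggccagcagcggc
Pcsk6: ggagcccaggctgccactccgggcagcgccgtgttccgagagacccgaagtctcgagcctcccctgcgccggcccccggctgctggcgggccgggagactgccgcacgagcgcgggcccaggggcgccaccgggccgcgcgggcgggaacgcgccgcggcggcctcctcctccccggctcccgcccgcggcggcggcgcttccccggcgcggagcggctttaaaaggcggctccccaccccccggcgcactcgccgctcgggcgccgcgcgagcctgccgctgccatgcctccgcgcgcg
The Pam stretch shown held 1 core, which begins 68 bases before the start, and the Pcsk6 stretch held none. A second Pam stretch, of another start, held 1 core that begins 82 bases before that start. Among the other members the Pcsk7 stretch held 2 cores and that of Cpd 1. Those of Pcsk1 and Pcsk5 held none, and the 2 Furin stretches held 3 and 0. On either strand, 46.7% of the 32851 stretches in the RefSeq table held at least 1 core, and 0.0365% held the inverted repeat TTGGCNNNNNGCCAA, in which each arm is a core. None of the 9 stretches of the 7 members in the table, which are Pam, Cpd, Furin, Pcsk1, Pcsk5, Pcsk6 and Pcsk7, held the inverted repeat. These matches describe the letters alone.

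**Figure D1:**
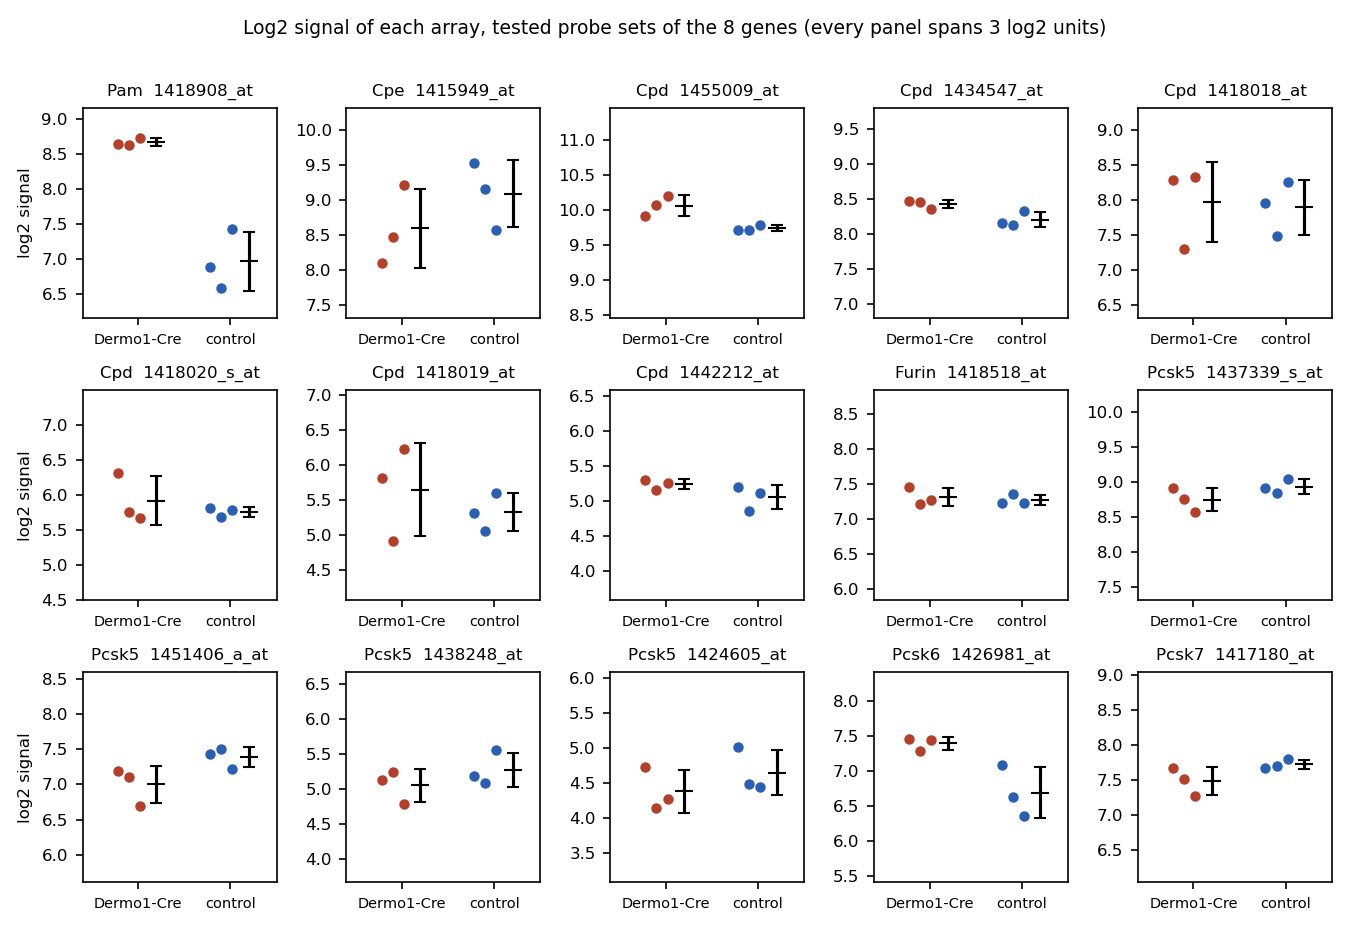
Log2 signal of each array for the 15 tested probe sets of the 8 genes, Cre-labelled lungs on the left (red) and control-labelled lungs on the right (blue); bars give the mean and SD of 3 lungs, and every panel spans 3 log2 units. The Pam panel shows Cre-labelled lungs at 8.63 to 8.73 above control-labelled lungs at 6.58 to 7.42, while most other panels overlap.

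Pcsk6 encodes the convertase PACE4, which is secreted, binds the extracellular matrix and activates ligands of the TGF-beta family. Its probe set read 7.46, 7.28 and 7.44 in Cre-labelled and 7.08, 6.63 and 6.35 in control-labelled lungs. The groups did not overlap, but the lowest Cre-labelled and the highest control-labelled lung lay close together. The log2 difference was 0.71 ± 0.18 SE, 1.63-fold, and ranged from 0.54 to 0.90 when 1 array was left out. As with Pam, the control-labelled lungs were the more scattered, with an SD of 0.09 in Cre-labelled and 0.36 in control-labelled lungs.

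Pcsk5 encodes the convertase PC5/6, which matures Gdf11 in mouse embryos. It had 5 probe sets, of which 4 were tested, and the means of all 5 were lower in Cre-labelled lungs. The brightest, 1437339_s_at, read 8.91, 8.76 and 8.57 in Cre-labelled and 8.91, 8.85 and 9.05 in control-labelled lungs, which overlap. The next, 1451406_a_at, read 7.20, 7.11 and 6.70 in Cre-labelled and 7.44, 7.51 and 7.22 in control-labelled lungs, and here the groups were apart by a narrow margin. The 4 tested differences lay between -0.39 and -0.19, with an SE of 0.11 for the brightest and 0.16 for the next. Gdf11 itself lay below the filter, at 3.11, 3.59 and 2.31 in Cre-labelled and 4.07, 4.29 and 4.35 in control-labelled lungs.

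Furin encodes the convertase present in the Golgi of nearly all cells. Its probe set read 7.46, 7.22 and 7.27 in Cre-labelled and 7.23, 7.35 and 7.24 in control-labelled lungs. The groups overlapped, and the difference of 0.04 ± 0.12 SE was smaller than its error. Pcsk7 encodes PC7, a convertase that acts on the transferrin receptor. It read 7.67, 7.51 and 7.28 in Cre-labelled and 7.67, 7.69 and 7.80 in control-labelled lungs. The highest Cre-labelled lung nearly met the lowest control-labelled lung, and the difference was -0.23 ± 0.13 SE. Pcsk1 encodes PC1/3, the convertase of secretory granules in endocrine cells and neurons. It lay below the filter, at 4.05, 3.71 and 3.85 in Cre-labelled and 3.95, 2.94 and 4.02 in control-labelled lungs, so its level is in the range of noise in both groups.

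Cpe encodes carboxypeptidase E, which trims hormone precursors in secretory granules. Its brighter probe set, 1415949_at, read 8.10, 8.47 and 9.21 in Cre-labelled and 9.53, 9.16 and 8.57 in control-labelled lungs. The groups overlapped, and the difference of -0.50 ± 0.29 SE was within the spread of the arrays, with SDs of 0.57 in Cre-labelled and 0.48 in control-labelled lungs. Across the 6 arrays Cpe moved with the cardiac muscle genes given above: Cre-labelled replicate 1 was lowest and control-labelled replicate 1 highest in both. With the mean of those 12 genes, itself mostly lower in Cre-labelled lungs, as a covariate, the Cpe difference changed sign to 0.40. Without control-labelled replicate 1 it was -0.27, without control-labelled replicate 3 -0.75, without Cre-labelled replicate 1 -0.25 and without Cre-labelled replicate 3 -0.81.

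**Figure D2:**
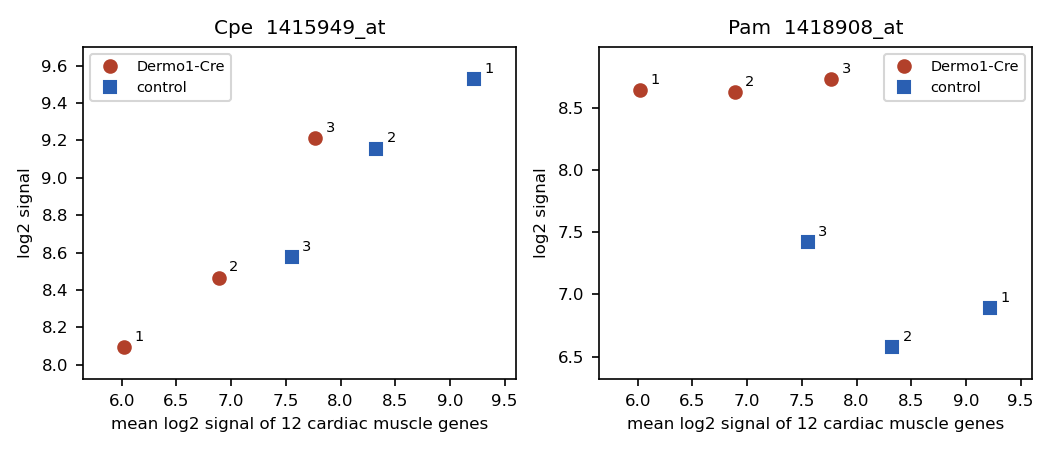
Log2 signal of Cpe (left) and Pam (right) on each array against the mean log2 signal of 12 cardiac muscle genes; circles are Cre-labelled and squares control-labelled lungs, with replicate numbers. Cpe runs from 8.10 to 9.53 as the cardiac mean runs from 6.03 to 9.22, while Pam lies at 8.63 to 8.73 over cardiac means of 6.03 to 7.77 in Cre-labelled lungs and at 6.58 to 7.42 over cardiac means of 7.56 to 9.22 in control-labelled lungs.

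Pam read 8.64, 8.63 and 8.73 on the Cre-labelled arrays with cardiac means of 6.03, 6.89 and 7.77, and 6.89, 6.58 and 7.42 on the control-labelled arrays with cardiac means of 9.22, 8.33 and 7.56. Among the control-labelled lungs Pam was highest where the cardiac mean was lowest, and among the Cre-labelled lungs where it was highest. With the cardiac mean as a covariate the Pam difference was 1.53. In that fit 123 probe sets of the whole array passed, against 963 without the covariate, and Pam was not among the 123. The cardiac mean was itself mostly lower in Cre-labelled lungs, so this fit cannot fully separate it from the group. The Pcsk6 difference was 1.0 with the covariate.

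Cpd encodes carboxypeptidase D, which works in the trans-Golgi network of most cells, next to furin. It had 7 probe sets, 6 of them tested, and each of the 6 had a higher mean in Cre-labelled lungs. The brightest, 1455009_at, read 9.91, 10.07 and 10.21 in Cre-labelled and 9.72, 9.71 and 9.79 in control-labelled lungs. The next, 1434547_at, read 8.46, 8.46 and 8.35 in Cre-labelled and 8.15, 8.13 and 8.33 in control-labelled lungs. On both the groups did not overlap, and the differences were 0.32 ± 0.10 SE and 0.22 ± 0.10 SE. On the other 4 the groups overlapped, with differences of 0.07 to 0.32. Of these, the 1418018_at difference turned to -0.13 without control-labelled replicate 2, to -0.08 without Cre-labelled replicate 1 and to -0.10 without Cre-labelled replicate 3. That of 1418020_s_at turned to -0.04 without Cre-labelled replicate 1. With the cardiac mean as a covariate they were -0.02 and -0.11.

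The remaining probe sets of Cpe, Cpd and Pcsk5, 1 of each, lay below the filter. Cpe 1439437_x_at read 0.76, -0.43 and 1.23 in Cre-labelled and 0.06, -0.69 and 0.75 in control-labelled lungs. Cpd 1447392_s_at averaged -0.33 ± 1.51 in Cre-labelled and 0.82 ± 1.27 in control-labelled lungs (SD, n = 3 each). Pcsk5 1452475_at averaged 3.74 ± 0.24 in Cre-labelled and 3.81 ± 0.48 in control-labelled lungs (SD, n = 3 each). Such readings hold little beyond noise.

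Of the 15 member probe sets in the limma fit of the whole array, 1 lay past the threshold of an adjusted p under 0.05, that of Pam, and 14 did not. Over the whole array, 3.56% of 27022 tested probe sets passed, 1.41% higher and 2.16% lower in Cre-labelled lungs. The groups did not overlap for 4 of the 15 with Cre-labelled lungs higher, which were Pam, Pcsk6 and 2 of Cpd, and for 2 with Cre-labelled lungs lower, 1 each of Pcsk5 and Pcsk7. Over all tested probe sets these shares were 13.3% and 12.8%. Since the genes were picked with this contrast in view, nothing is read from these counts.

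**Figure D3:**
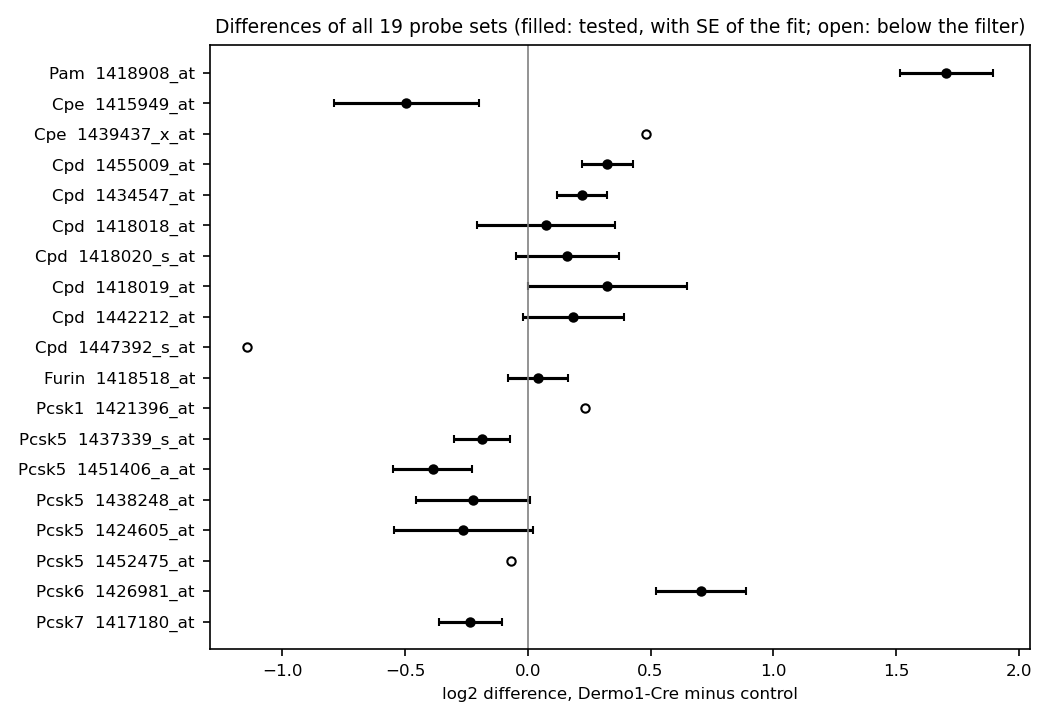
Log2 difference, Cre-labelled minus control-labelled, of all 19 probe sets of the 8 genes; filled points were tested and carry the SE of the fit, open points lay below the filter and have none. Pam stands at 1.70 and Pcsk6 at 0.71, the 6 tested Cpd probe sets lie between 0.07 and 0.32, and the 4 tested Pcsk5 probe sets between -0.39 and -0.19.

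The genes whose pattern over the 6 arrays came closest to that of Pam were Ap1s3, Arpp21, Gm2115, Unc5c and Hpse2. Likeness was the root mean square difference over 6 arrays after each probe set was centred on its own mean, and it was 0.16, 0.19, 0.22, 0.29 and 0.30 log2 units in that order. Ap1s3, which encodes a subunit of the AP-1 clathrin adaptor, read 6.18, 6.50 and 6.42 in Cre-labelled and 4.65, 4.47 and 4.89 in control-labelled lungs. Unc5c, a netrin receptor gene, read 7.46, 7.45 and 7.65 in Cre-labelled and 6.19, 6.15 and 6.22 in control-labelled lungs. Hpse2, which encodes heparanase 2, averaged 5.87 and 4.39, Arpp21 4.89 and 3.44, and Gm2115 4.78 and 3.40 in Cre-labelled and control-labelled lungs. These 5 were selected for resembling Pam, so their differences are no separate result.

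Cell types that could carry the processing enzymes were read from marker lists, as the log2 of the summed linear signal. Of 10 pulmonary neuroendocrine markers 4 were tested and none passed, and their sum was 9.25 to 9.67 in Cre-labelled and 9.76 to 9.88 in control-labelled lungs. The aromatic amino acid decarboxylase gene Ddc had a difference of -0.35 ± 0.14 SE, the bombesin-like peptide gene Grp of -0.44 ± 0.14 SE and Uchl1 of -0.35 ± 0.19 SE, while the synaptic vesicle gene Syp had 0.06 ± 0.23 SE. The defining granule markers Chga, Chgb, Scg2, Scg5 and Resp18 lay below the filter in the average of all lungs. Chga read 0.98 to 3.15 in Cre-labelled and 2.40 to 4.12 in control-labelled lungs, which overlap, and Chgb read 3.61 to 3.98 in Cre-labelled and -0.75 to 3.50 in control-labelled lungs. The means of Scg2, Scg5 and Resp18 were 2.50, 1.73 and 0.41 in Cre-labelled and 3.60, 3.49 and 1.81 in control-labelled lungs. The part of these cells in the Pam difference was not tested. Of 7 neuron and glia markers 2 were tested and 1 fell, Stmn2 (-0.62 ± 0.12 SE, limma adjusted p = 0.0275). The sum was 7.93 to 8.10 in Cre-labelled and 8.29 to 8.62 in control-labelled lungs. The mean log2 signal of the 7 overlapped, at 3.21 to 4.33 in Cre-labelled and 3.82 to 4.13 in control-labelled lungs. Sox10 and Prph, the next in signal after Stmn2, averaged 4.91 and 3.97 in Cre-labelled and 5.24 and 3.57 in control-labelled lungs.

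The 12 cardiac muscle markers were all tested, all had lower means, and 1 fell, Myh7. Their sum was 11.04 to 12.35 in Cre-labelled and 11.90 to 13.69 in control-labelled lungs, and the brightest, Actc1, Myl7 and Myl4, had differences of -1.11 ± 0.35 SE, -1.07 ± 0.43 SE and -1.04 ± 0.48 SE. The atrial peptide gene Nppa read 3.46, 4.95 and 7.04 in Cre-labelled and 10.66, 7.48 and 5.92 in control-labelled lungs. Of 8 smooth muscle markers none passed, and the sum was 12.63 to 12.68 in Cre-labelled and 12.44 to 12.58 in control-labelled lungs. The mean log2 signal of the 8 overlapped, at 8.03 to 8.39 in Cre-labelled and 7.95 to 8.16 in control-labelled lungs. Differences of the brightest were 0.21 ± 0.13 SE for Acta2, -0.02 ± 0.09 SE for Tagln and 0.02 ± 0.20 SE for Myh11. Of the 8, 5 had higher means, and Cnn1 (0.74 ± 0.24 SE) and Actg2 (0.38 ± 0.13 SE) were higher without overlap. Des had -0.31 ± 0.18 SE and Smtn -0.14 ± 0.26 SE. Of 8 lung mesenchyme markers Wnt2 rose, and the sum overlapped, at 13.74 to 13.83 in Cre-labelled and 13.75 to 13.90 in control-labelled lungs. Their mean log2 signal did not overlap, at 10.17 to 10.25 in Cre-labelled and 10.07 to 10.13 in control-labelled lungs. Col1a2, Tcf21 and Tbx4 had differences of 0.08, -0.32 and 0.01. What part the smooth muscle level has in the Pam difference was not tested.

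The sums of 8 endothelial markers, 8 immune markers and 6 mesothelium markers were lower in each Cre-labelled lung than in any control-labelled lung, and those of 8 epithelial markers likewise. They ranged from 12.56 to 12.90 and 13.06 to 13.22 for endothelium, 11.63 to 11.87 and 12.37 to 12.56 for immune cells, 10.87 to 11.17 and 11.62 to 11.94 for mesothelium, and 14.18 to 14.28 and 14.33 to 15.10 for epithelium, Cre-labelled lungs before control-labelled lungs in each pair. Emcn, Ramp2 and Cdh5 were the brightest endothelial genes, Lyz2, S100a8 and Csf1r the brightest immune genes, Krt19, Msln and Upk3b the brightest mesothelial genes and Sftpc, Scgb1a1 and Ager the brightest epithelial genes. Of the 2 immune, 2 mesothelial and 2 epithelial markers that fell, Lyz2, S100a8, Krt19 and Msln are among these. The epithelial ones were the water channel gene Aqp5 (-1.49 ± 0.23 SE, limma adjusted p = 0.0123) and the surfactant protein gene Sftpb (-1.27 ± 0.20 SE, adjusted p = 0.0148). In each of these lists 1 tested marker had a higher mean in Cre-labelled lungs. Epithelial Epcam (0.32 ± 0.12 SE) and endothelial Tek (0.10 ± 0.09 SE) were higher without overlap. Mesothelial Wt1 (0.47 ± 0.30 SE) and immune Laptm5 (0.04 ± 0.25 SE) overlapped. The 5 liver markers, led by Alb, Afp and Apoa2, overlapped, with sums of 6.29 to 8.70 in Cre-labelled and 5.92 to 9.77 in control-labelled lungs. Their part in the levels of the processing enzymes was not tested.

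Around the 8 enzymes, 9 lists of pathway genes held 166 genes, of which 153 had a probe set and 100 were tested. In Cre-labelled lungs 3 of the 100 rose and 9 fell. Of all 12826 genes tested by 1 probe set each, 1.92% rose and 3.04% fell. The median log2 difference of the 100 was -0.12, and that of all genes -0.01. Of the 12 genes, 7 had other tested probe sets, 12 in all, none of which had the opposite sign and 2 of which passed the same way. With the cardiac mean as a covariate 1 of the 12 passed, Scnn1g.

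**Figure D4:**
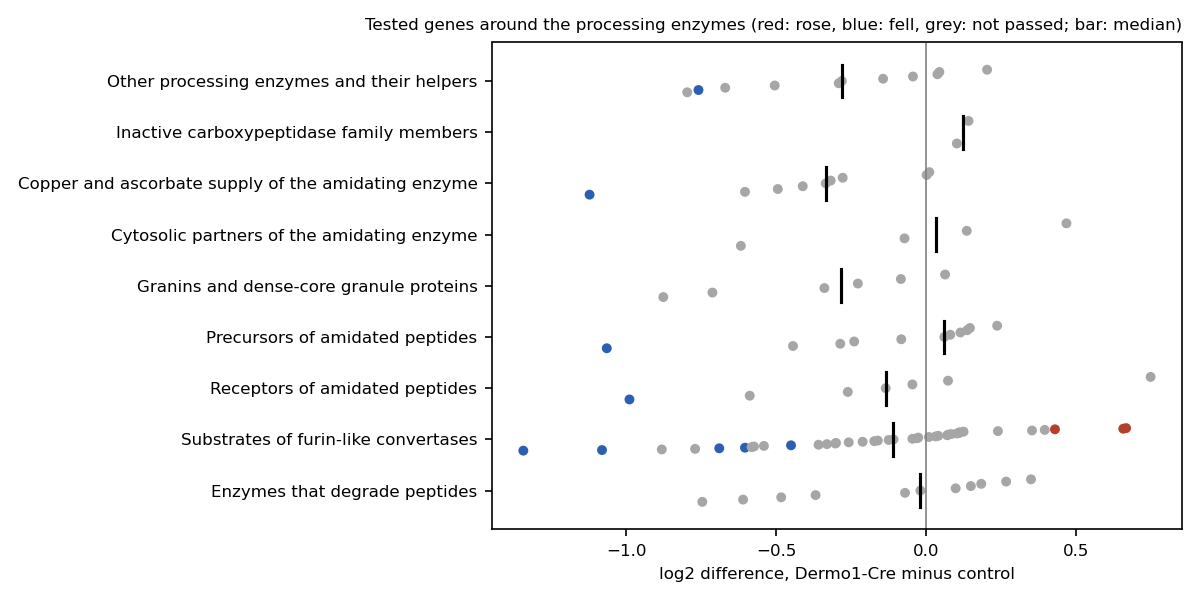
Log2 difference, Cre-labelled minus control-labelled, of each tested gene in 9 lists around the processing enzymes, with 1 probe set for each gene; red genes rose, blue genes fell, grey genes did not pass, and black bars are medians. The 3 genes that rose are all convertase substrates, and medians run from -0.33 for copper and ascorbate supply to 0.12 for the inactive carboxypeptidases.

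Other processing enzymes and their helpers had 13 genes with a probe set and 11 tested, of which 1 fell and none rose, with a median of -0.28. The gene that fell was Cpm, a membrane carboxypeptidase abundant in alveolar type I cells. It read 8.30, 8.52 and 8.15 in Cre-labelled and 9.0, 8.96 and 9.29 in control-labelled lungs, with no overlap and a difference of -0.76 ± 0.13 SE (limma adjusted p = 0.0188). Its second probe set passed as well, with a difference of -0.70. In the 6 fits without 1 array the adjusted p was 0.0242 to 0.0612, and the call held when a replicate numbered 2 of either group was left out but not otherwise. Qpct, which closes N-terminal glutamine into pyroglutamate, had a difference of -0.67 ± 0.16 SE (adjusted p = 0.0545) and the cathepsin gene Ctsl of -0.50 ± 0.16 SE (adjusted p = 0.115). The site-1 protease gene Mbtps1 measured 10.06 ± 0.15 in Cre-labelled and 10.01 ± 0.06 in control-labelled lungs (SD, n = 3 each). Scg5, which encodes the chaperone of another convertase, PC2, and Pcsk1n, whose product inhibits PC1/3, lay below the filter. The inactive carboxypeptidase relatives Aebp1 and Cpxm1 were tested and did not pass, with differences of 0.14 ± 0.14 SE and 0.10 ± 0.12 SE.

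The amidating enzyme needs copper and ascorbate, and all 9 genes of their supply were tested; 1 fell, none rose, and the median was -0.33. Atp7b, a copper-transporting ATPase, read 6.11, 6.42 and 6.42 in Cre-labelled and 7.38, 7.41 and 7.52 in control-labelled lungs. The groups were far apart relative to their spread, with a difference of -1.12 ± 0.14 SE (limma adjusted p = 0.00677), and the call held in each fit without 1 array. The other tested Atp7b probe set, of lower signal, had a difference of -0.25 and did not pass. Atp7a, the related ATPase that feeds copper to secreted enzymes, read 9.62 ± 0.09 in Cre-labelled and 9.62 ± 0.03 in control-labelled lungs (SD, n = 3 each). The copper importer gene Slc31a1 had a difference of -0.41 ± 0.13 SE (adjusted p = 0.107) and Cyb5r3 of -0.32 ± 0.10 SE (adjusted p = 0.125), and neither passed. None of the 4 tested genes for cytosolic partners of the enzyme passed: Kalrn had 0.47 ± 0.20 SE, Rassf9 -0.62 ± 0.30 SE and the kinase gene Uhmk1 0.14 ± 0.13 SE.

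Of 15 granin and dense-core granule genes 6 were tested and none passed, with a median of -0.28. The vesicular monoamine transporter gene Slc18a1 had a difference of -0.88 ± 0.26 SE (limma adjusted p = 0.103), the granule phosphatase gene Ptprn2 of -0.71 ± 0.42 SE (adjusted p = 0.39) and Rab3a of -0.23 ± 0.13 SE (adjusted p = 0.398). The other 9, the granin genes Chga, Chgb and Scg2 among them, had means below the filter.

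Of 31 precursors of amidated peptides with a probe set, 11 were tested, 1 fell and none rose, with a median of 0.06. Gal, the galanin gene, read 5.02, 5.06 and 4.75 in Cre-labelled and 6.15, 6.31 and 5.56 in control-labelled lungs, without overlap. The difference was -1.07 ± 0.24 SE (limma adjusted p = 0.0458). Its call lay near the threshold and was lost in each fit without 1 array other than that without control-labelled replicate 3 (adjusted p 0.0369 to 0.135). The Gal call was also lost with quantile normalization, a common median, no filter, no intensity trend or the sex covariate. Grp had a difference of -0.44 ± 0.14 SE (adjusted p = 0.113), and Npff one of -0.24 ± 0.17 SE (adjusted p = 0.49). The adrenomedullin gene Adm read 4.84 ± 0.46 in Cre-labelled and 4.71 ± 0.28 in control-labelled lungs (SD, n = 3 each), and the corticotropin-releasing hormone gene Crh 10.16 ± 0.09 and 10.05 ± 0.29.

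Of 26 receptor genes for amidated peptides 7 were tested, 1 fell and none rose, with a median of -0.13. Ramp1, whose product joins Calcrl to form the receptor for calcitonin gene-related peptide, read 6.55, 6.63 and 6.62 in Cre-labelled and 7.73, 7.50 and 7.54 in control-labelled lungs. The groups were well apart, with a difference of -0.99 ± 0.12 SE (limma adjusted p = 0.00677), and the call held in each fit without 1 array. The other tested Ramp1 probe set, of lower signal, had a difference of -0.56 and did not pass. Ramp2, whose product with Calcrl forms an adrenomedullin receptor and which is also on the endothelial list, had -0.59 ± 0.14 SE (adjusted p = 0.052). The neuropeptide Y receptor gene Npy2r had 0.75 ± 0.20 SE (adjusted p = 0.0711). Calcrl read 10.78 ± 0.19 in Cre-labelled and 10.83 ± 0.15 in control-labelled lungs (SD, n = 3 each).

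Of 40 substrates of furin-like convertases with a probe set 39 were tested, 3 rose and 5 fell, with a median of -0.11. The sodium channel subunit genes Scnn1g and Scnn1a, whose products are activated by furin cleavage, had the largest falls, -1.34 ± 0.12 SE (limma adjusted p = 0.00231) and -1.08 ± 0.12 SE (adjusted p = 0.00487). Adamts1, a matrix protease gene, changed by -0.69 log2 units (SE 0.11, adjusted p = 0.0138), the lymphatic growth factor gene Vegfd one of -0.45 (SE 0.10, adjusted p = 0.0427) and Npnt, which encodes nephronectin, one of -0.60 (SE 0.13, adjusted p = 0.0413). The other tested Npnt probe sets had differences of -0.67 to -0.33, and none passed. Npnt was entered on the list without certain knowledge that its product is cut by these enzymes.

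The 3 that rose were the fibrillin gene Fbn2 (0.66 ± 0.11 SE, limma adjusted p = 0.0167), Notch2 (0.67 ± 0.12 SE, adjusted p = 0.0191) and Bmp5 (0.43 ± 0.09 SE, adjusted p = 0.0386). Notch2 read 10.05, 9.74 and 10.11 in Cre-labelled and 9.37, 9.24 and 9.28 in control-labelled lungs. Fbn2 read 11.08, 11.10 and 11.27 in Cre-labelled and 10.50, 10.60 and 10.36 in control-labelled lungs, and its second probe set rose too, by 0.82. The calls of Scnn1g and Scnn1a held in each fit without 1 array. That of Adamts1 was lost without control-labelled replicate 2 (highest adjusted p 0.0534), and that of Fbn2 without control-labelled replicate 3 or Cre-labelled replicate 1 or 3 (highest 0.051). Notch2 passed without Cre-labelled replicate 2 and in no other such fit (0.0159 to 0.0719), Npnt without control-labelled replicate 1 and in no other (0.0436 to 0.125), and Bmp5 and Vegfd in none (0.061 to 0.122 and 0.0673 to 0.129). Bmp5 and Vegfd also lost their calls with a common median, with no filter, without an intensity trend and with the sex covariate, and Vegfd with the replicate block. Npnt lost its call with a common median, with no filter and without an intensity trend. Without the trend Adamts1, Fbn2, Notch2 and Cpm lost theirs as well.

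Of 12 genes for enzymes that degrade peptides 11 were tested and none passed at the adjusted threshold in limma, with a median of -0.02. Ace, which encodes angiotensin-converting enzyme, had a difference of -0.75 ± 0.18 SE (adjusted p = 0.0533), the neprilysin gene Mme, whose product inactivates bombesin-like peptides, -0.61 ± 0.15 SE (adjusted p = 0.0616) and the endothelin-converting enzyme gene Ece1 -0.48 ± 0.15 SE (adjusted p = 0.108).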

How the data were processed

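Total RNA of 6 fetal lungs was hybridised to Affymetrix mouse arrays, 1 array per animal, and the authors deposited 1 table of log2 signals. Per the submitters' processing notes the tools were MAS5 and affy; their versions and settings are not given in the sources used here. Raised to the power of 2, the deposited log2 values of every array had a mean, trimmed by 2% at each end, of 150.04 to 150.05. They were used as deposited. Low signals are noisy because MAS5 subtracts a background from each probe set, and the number of arrays limits the precision.

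Of 45101 probe sets, 64 array controls were left out; 34945 of the rest had 1 symbol in the platform annotation, 932 several and 9160 none. Symbols were updated through RefSeq (GRCm38.p6). Probe sets with a mean over 6 arrays at or above the 40th percentile (log2 signal 4.00) were tested, 27022 in all. The fit used limma 3.58.1 under R 4.3.3 (intensity trend, two-sided, no covariates, Benjamini-Hochberg over all tested probe sets), after a check on simulated data. The members and gene lists were chosen with earlier results of these data known. All probe sets of the members are given; elsewhere the probe set with the highest mean stands for a gene. Named genes are the members, pathway list genes past the threshold, the 3 of each pathway list with the smallest unadjusted p, the 3 brightest of each marker list, and the 5 closest to Pam; further genes of the lists, such as other markers past the threshold, were named after their values were seen. Replicates are separate animals. Correlations of the same-numbered arrays' deviations from their group means were -0.01, 0.20 and 0.14 for numbers 1, 2 and 3, so the numbers were not taken to pair the animals. Motifs were searched on both strands of 300-base RefSeq stretches. Figures were drawn with matplotlib 3.10.9.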

Additional observations from a re-analysis of the deposited data

How the results depend on the processing

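Of the alternatives, 16 refitted the members. Pam stayed higher in all 16, between 1.31 with the offset of 64 and 1.93 without control-labelled replicate 3. It was past the threshold in 15 of the 16, and not with the cardiac covariate. Pcsk6 stayed positive in all 16 and was past the threshold in 2. Both genes were picked with this contrast in view, so nothing is read from these counts. The count of 963 probe sets became 171 without an intensity trend, 123 with the cardiac covariate, 587 with fetal sex as a covariate, 2120 at an adjusted p of 0.10 and 314 to 495 without 1 array. The 9 pathway genes that fell became 6 with a common median or no filter, 4 without the trend, 1 with the cardiac covariate, 15 at 0.10 or with probe sets averaged per gene, and 5 to 7 without 1 array. The 3 that rose became 2 with a common median, no filter or the sex covariate, 0 without the trend or with the cardiac covariate, 4 at 0.10 or with that average, and 0 to 2 without 1 array. With the replicate block 1309 probe sets, 11 falls and 3 rises passed and the Pam difference was 1.70, and not every array correlated best with its own number. The causes were not tested.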

Other observations

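Several peptide genes had means below the filter in the average of all lungs and were not tested, and they are given as values. Vip, which encodes vasoactive intestinal peptide, read 4.39, 3.62 and 3.75 in Cre-labelled and 1.41, 3.73 and 1.22 in control-labelled lungs, which overlap. The adrenomedullin 2 gene Adm2 read 3.10, 3.80 and 4.41 in Cre-labelled and 2.14, 0.82 and 2.90 in control-labelled lungs, and the secretin gene Sct 4.81, 4.60 and 4.26 in Cre-labelled and 2.28, 3.39 and 4.24 in control-labelled lungs. The granin gene Chgb read 3.98, 3.61 and 3.77 in Cre-labelled and 3.50, 2.60 and -0.75 in control-labelled lungs, while Scg5 read 2.32, 0.50 and 2.38 in Cre-labelled and 3.30, 3.66 and 3.51 in control-labelled lungs. They were named with their values in view and do not stand for their lists. Among the other untested precursors of amidated peptides, Ucn, Tac2, Ppy, Iapp, Nmu, Pyy and Trh had lower means in Cre-labelled lungs. Adcyap1, Cck, Ghrh, Tac1, Npvf, Npy, Tac4, Ucn2, Ucn3 and Gast had higher means there. The groups did not overlap for Ucn, which was lower, or for Adcyap1, Cck and Tac1, which were higher. Adm2 and Sct, given above, were also higher without overlap. Most of these signals lay in the range of noise, and no direction of the peptide genes is read from them.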
